A study of Mus musculus with 2 samples.

Results

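The genes described are 76 microbe-sensing and lectin receptor genes of the mouse, chosen by name from 22388 rows of type mRNA in a table of 35529 genes. They are 12 Toll-like receptors, 29 NOD-like receptors (Nod1, Nod2 and the Nlrp, Nlrc, Nlrx1 and Naip genes), 31 genes named Clec for C-type lectin domain, and 4 partners: the co-receptor Cd14, the adaptors Myd88 and Pycard and the DNA sensor Aim2. RNA came from colon adenomas of C57BL/6 wild-type mice treated with the carcinogen azoxymethane (AOM) and the mucosal irritant dextran sodium sulfate (DSS), and from the colon of C57BL/6 wild-type mice that received neither agent. Each of these 2 groups was 1 library made from the pooled RNA of 6 individuals, so the animals cannot be separated, no value has a replicate error, and no test between the pools is possible. They are called the adenoma pool and the control pool here, and age and time after treatment were not given in the sources used. Values are RPKM, read numbers scaled by gene length and by library size, so that levels can be set side by side between genes, on 33174626 reads in the adenoma pool and 29548883 in the control pool.

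Toll-like receptors sit at the cell surface or in endosomes and bind bacterial lipopeptides, lipopolysaccharide, flagellin or nucleic acids. Most of them signal through Myd88 to NF-kappaB. NOD-like receptors sense microbial products inside the cell, and some assemble with the adaptor Pycard into inflammasomes, complexes that activate caspase-1. In the gut both families are found in epithelial cells as well as in immune cells. Many myeloid C-type lectins bind sugars of fungi and bacteria or products of dead cells and signal through Syk, while other Clec genes encode ligands of natural killer cell receptors or matrix proteins.

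The 3 families differed between the pools in different ways. NOD-like receptors above the limit of 1 RPKM were lower in the adenoma pool, 10 of 12 also after length adjustment. Toll-like receptors were lower in 6 of 7 cases, and in 4 of 7 after that adjustment. Of the 17 C-type lectins above the limit, 8 were higher and 9 lower. A set of activating myeloid lectins, picked with their values known, was higher. Of the 76 genes, 40 reached 1 RPKM in at least 1 pool, 24 were below that in both, and 12 were listed at 0 in both. On the scale log2((adenoma RPKM + 1)/(control RPKM + 1)), which understates differences of low genes, 3 of the 40 were higher by 2-fold or more, against 10.4% of all mRNA genes past the same filter (14.0% of genes of every type). Another 10 were lower by 2-fold or more, against 13.1% of mRNA genes (11.0% of every type). The median of the 40 was -0.39, beside -0.17 over all mRNA genes. The filter was met in both pools by 32 genes, in the adenoma pool alone by 3 and in the control pool alone by 5, and those 8 had to differ to some extent in order to be kept. Closest to the limit were Nod2 (0.489 RPKM in the adenoma pool and 1.02 in the control pool) and Clec12a (1.06 and 0.609) just inside it, and Nlrp10 (0.518 and 0.970) and Tlr5 (0.358 and 0.963) just outside.

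**Figure D1:**
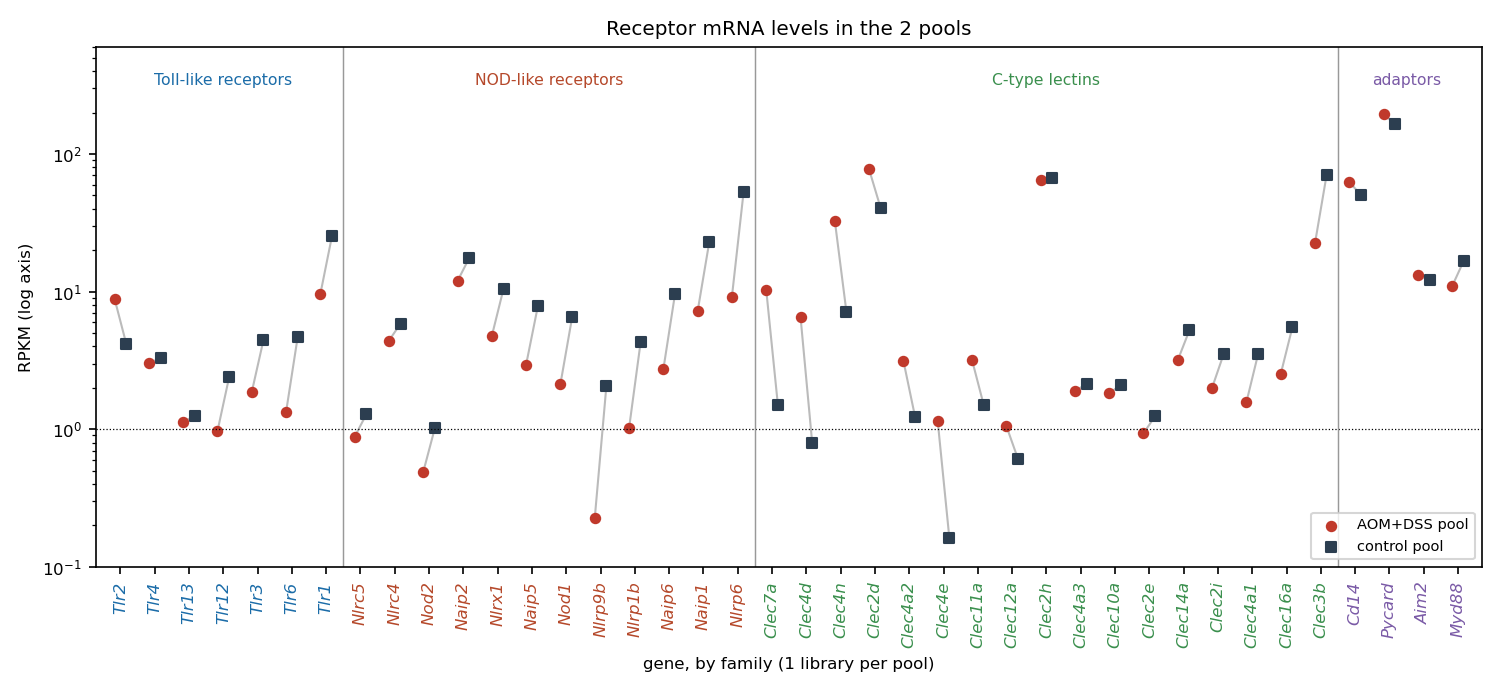
RPKM on a log axis of the 40 receptor genes with at least 1 RPKM (dotted line) in either pool, by family, with the adenoma (AOM+DSS) pool as circles left of the control pool as squares and 1 library per pool. All 12 NOD-like receptors that reached the filter lie lower in the adenoma pool (Nlrc4 and Nlrc5 not so after length adjustment), Tlr2 is the 1 Toll-like receptor that lies higher, and Clec7a, Clec4d, Clec4n and Clec4e show the steepest differences upward.

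Transcript length moved with these values. The median for mRNA genes on the log2 scale was 0.86 in the 1274 with the shortest transcripts and -0.78 in the 1274 with the longest. NOD-like receptors past the filter had a median transcript length of 4724 bases, Toll-like receptors 3677 and C-type lectins 2277, with 2888 for all mRNA genes past the filter. After length adjustment 3 of the 40 were past 2-fold upward, beside 5.48% of mRNA genes (5.07% of genes of every type), and 8 downward, beside 9.95% (11.0%). Each family is also given in this way, with the running median over length subtracted and the mRNA median of -0.17 added back. In bulk tissue, fewer cells of a type and less RNA per cell cannot be told apart.

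**Figure D2:**
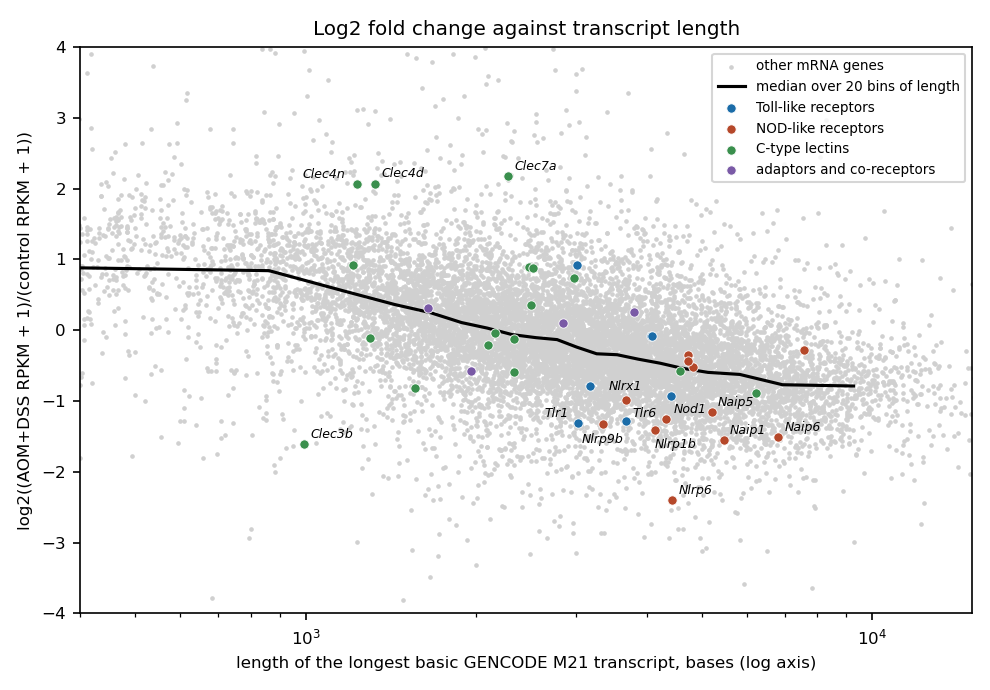
Log2 fold change (adenoma over control, pseudocount 1 RPKM) against transcript length on a log axis for the 40 receptor genes in colour and other mRNA genes in grey, with the median over 20 bins of length as a line; genes beyond the axes are not drawn. Nlrp6 and Clec3b lie far below the line and Clec7a, Clec4d and Clec4n far above it. Nlrc4, Nlrc5, Nod2, Naip2, Tlr4 and Tlr13 lie above the line although their values are negative.

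Among the Toll-like receptors, 6 of the 7 past the filter were lower in the adenoma pool and 1 was higher, beside 58.1% of mRNA genes below 0. Tlr12 passed through the control pool alone, which fixed its direction. Tlr1 and Tlr6, which pair with Tlr2 to bind triacylated and diacylated lipopeptides, were the 2 called at least 2-fold lower. Of all mRNA genes past the filter 13.1% were called lower. Tlr1 was the most abundant Toll-like receptor in both pools, at 9.62 RPKM in the adenoma pool and 25.4 in the control pool, 2.64-fold lower (exact binomial 95% interval 2.45 to 2.85, counting error only, as for every interval here). Tlr6 was at 1.33 RPKM in the adenoma pool and 4.70 in the control pool, 3.52-fold lower (2.95 to 4.23). Their partner Tlr2 went the other way, at 8.85 RPKM in the adenoma pool and 4.18 in the control pool, 2.12-fold higher (1.87 to 2.39), which on the log2 scale with pseudocount is 0.93 and just under the threshold. Tlr2 was second to Tlr1 in the adenoma pool, and stood below Tlr1, Tlr6 and Tlr3 in control colon. The summed level of Tlr1, Tlr2 and Tlr6 was 19.8 RPKM in the adenoma pool and 34.3 in the control pool.

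Tlr1 and Tlr6 lie side by side on the minus strand of chromosome 5 (GRCm38, GENCODE M21: Tlr1 from 64924679 to 64933563, Tlr6 from 64952031 to 64960097). Of the 50-base words of the Tlr1 transcript, 15.3% also occur in another gene, each of them in Tlr6, and of those of Tlr6 12.6% do. Reads from these stretches cannot be assigned to either gene with certainty. The Tlr2 transcript shares 0 such words.

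Tlr4, the receptor for lipopolysaccharide, differed little, at 3.03 RPKM in the adenoma pool and 3.28 in the control pool (ratio 0.926, interval 0.803 to 1.06). Tlr3, which binds double-stranded RNA in endosomes, was at 1.86 RPKM in the adenoma pool and 4.44 in the control pool, 2.38-fold lower (2.06 to 2.76). Tlr12, which in mice recognises profilin of apicomplexan parasites, was at 0.969 RPKM in the adenoma pool and 2.39 in the control pool, 2.47-fold lower (1.94 to 3.15). Tlr13, a mouse receptor for bacterial ribosomal RNA, stood at 1.13 RPKM in the adenoma pool and 1.26 in the control pool, a ratio whose interval of 0.711 to 1.13 includes 1. The other 5 receptors were under 1 RPKM in both pools, each with the lower value in the adenoma pool. Among these 5, the flagellin receptor Tlr5 had 0.358 RPKM in the adenoma pool and 0.963 in the control pool, and Tlr9, the receptor for unmethylated CpG DNA, had 0.200 in the adenoma pool and 0.731 in the control pool. The endosomal RNA receptors Tlr7 (0.443 in the adenoma pool and 0.506 in the control pool) and Tlr8 (0.134 and 0.375 in the same order) and the profilin receptor Tlr11 (0.0572 and 0.107) complete the family. The median of the 7 receptors past the filter was -0.78, and -0.60 after length adjustment, when 4 of the 7 were negative, a share near the 61.4% of mRNA genes, and 2 were still past 2-fold. The summed level of all 12 was 28.0 RPKM in the adenoma pool and 48.4 in the control pool.

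NOD-like receptors past the filter went one way. Each of the 12 past the filter was lower in the adenoma pool, 7 of them at least 2-fold and none higher, with a median of -1.21. The direction of 3 of the 12 (Nod2, Nlrc5 and Nlrp9b, the last among the 7) was fixed by the filter, which they passed through the control pool alone. Below 0 on this scale lay 58.1% of mRNA genes and 50.8% of genes of every type, and 13.1% of mRNA genes were at least 2-fold lower. After length adjustment 10 of the 12 remained negative, beside 61.4% of mRNA genes (62.6% of every type), and 4 were at least 2-fold lower, beside 9.95%. Their adjusted median was -0.86. The summed level of all 29 was 48.9 RPKM in the adenoma pool and 144 in the control pool.

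Nlrp6, an inflammasome receptor of the intestinal epithelium with a known role in mucus secretion and in the control of gut bacteria, carried much of that sum. It was at 9.21 RPKM in the adenoma pool and 52.9 in the control pool, 5.75-fold lower (5.42 to 6.10). Adjusted for length, its log2 fold change was -2.07. In the adenoma pool it stood below Naip2, whereas it headed the family in the control pool. Nlrp9b, which in mice senses viral double-stranded RNA in intestinal epithelial cells, was at 0.225 RPKM in the adenoma pool and 2.07 in the control pool, 9.18-fold lower (6.06 to 14.6), on 25 against 204.5 reads. Nlrp1b, the mouse sensor of anthrax lethal toxin, was at 1.02 RPKM in the adenoma pool and 4.33 in the control pool, 4.27-fold lower (3.54 to 5.19). These 3 were also at least 2-fold lower after length adjustment, as was Naip1. Nlrp3, the most studied inflammasome receptor of myeloid cells, was low in both pools, with 0.307 RPKM and 41 reads in the adenoma pool and 0.219 RPKM and 26 reads in the control pool (ratio 1.41, interval 0.839 to 2.39). Of the 19 Nlrp genes, 9 were listed at 0 in both pools. These included Nlrp12, Nlrp2, Nlrp5 and Nlrp14, and of the Nlrp4 genes those named a, b, c, d and g.

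The Naip proteins bind bacterial flagellin (Naip5 and Naip6), the needle protein (Naip1) or the inner rod protein (Naip2) of type III secretion systems and pass the signal to Nlrc4. All 4 were lower in the adenoma pool. Naip1 was at 7.21 RPKM in the adenoma pool and 23.0 in the control pool, 3.19-fold lower (2.99 to 3.40). Naip6 was at 2.72 RPKM in the adenoma pool and 9.58 in the control pool, 3.52-fold lower (3.21 to 3.86), and Naip5 at 2.95 and 7.80 in the same order, 2.64-fold lower (2.38 to 2.93). Naip2 differed less, at 11.96 RPKM in the adenoma pool and 17.5 in the control pool, 1.47-fold lower (1.38 to 1.56). After length adjustment its log2 value was -0.13, beside an mRNA median of -0.17. Nlrc4, the partner of the Naip proteins, was at 4.41 RPKM in the adenoma pool and 5.86 in the control pool, 1.33-fold lower (1.20 to 1.48), and its length-adjusted log2 value was 0.03. The 4 Naip genes form a cluster on chromosome 13, from Naip2 starting at 100144063 to Naip1 ending at 100452869 (GRCm38). They are close copies, with 36.8% of the 50-base words of Naip5, 32.5% of Naip1, 21.5% of Naip6 and 19.4% of Naip2 found in other genes, so that the split between members is uncertain. Of the 1758 shared words of Naip1, 1255 are shared with Naip3, which is outside these 4. Their summed level, which reads moved between copies would also change, was 24.8 RPKM in the adenoma pool and 57.9 in the control pool.

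Nod1 and Nod2, which bind fragments of bacterial peptidoglycan, were both lower in the adenoma pool. Nod1 was at 2.13 RPKM in the adenoma pool and 6.495 in the control pool, 3.04-fold lower (2.66 to 3.48). Nod2 was at 0.489 RPKM in the adenoma pool and 1.02 in the control pool, 2.09-fold lower (1.56 to 2.77), and it passed the filter through the control pool alone. The length-adjusted log2 value of Nod2 was -0.06, beside a median of -0.17 over all mRNA genes. Nlrx1, a mitochondrial member of the family, was at 4.77 RPKM in the adenoma pool and 10.5 in the control pool, 2.20-fold lower (1.99 to 2.43). Nlrc5, a transactivator of MHC class I genes, was at 0.881 RPKM in the adenoma pool and 1.28 in the control pool, 1.45-fold lower (1.21 to 1.76), and its length-adjusted log2 value was 0.32. Nlrc3, a negative regulator of innate signalling that stayed under 1 RPKM, had about 9.27 reads in the adenoma pool and 53.0 in the control pool, and was 6.42-fold lower (3.23 to 15.3).

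Of the 7 epithelial marker genes, which include Epcam, Krt8, Vil1 and Cdx2, 6 were lower in the adenoma pool, 4 of them at least 2-fold, and none was at 0. The 4 were Cdh1, Cdx2, Krt20 and Vil1. Over all mRNA genes past the filter 58.1% were lower, and 13.1% at least 2-fold lower (61.4% and 9.95% after length adjustment). The summed level of the 7 markers was 3918 RPKM in the adenoma pool and 5973 in the control pool, with a median of -1.10 and of -1.01 after length adjustment. Krt8 (2514 RPKM in the adenoma pool and 4237 in the control pool) made up most of both sums. Epcam differed less (646 and 752 in the same order), and Krt18 was higher (483 and 327). The lower markers moved with the NOD-like and Toll-like receptors, and their part in the receptor values was not tested.

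**Figure D3:**
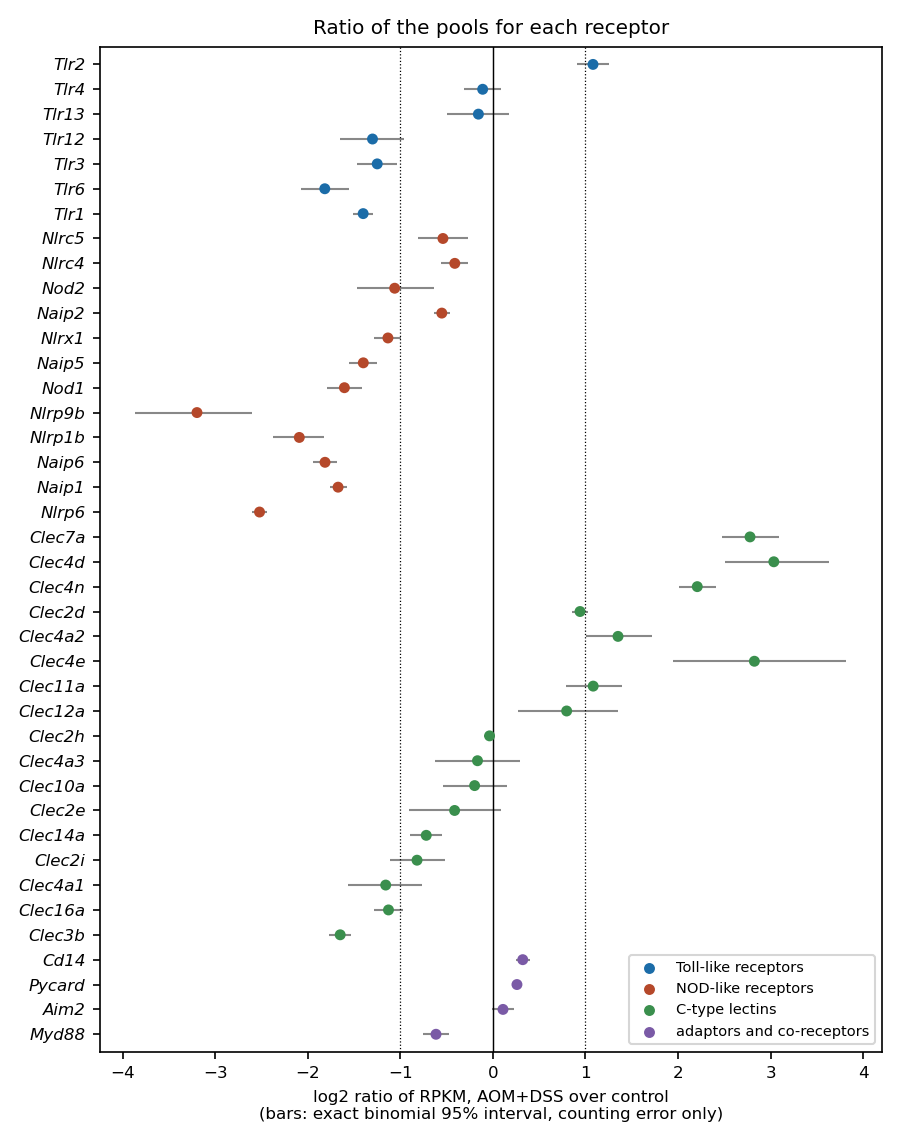
Log2 ratio of RPKM, adenoma over control without a pseudocount, for the 40 receptor genes past the filter, with exact binomial 95% intervals that cover counting error only. Dotted lines mark 2-fold. Nlrp9b and Nlrp6 have the lowest ratios and Clec4d, Clec4e, Clec7a and Clec4n the highest, and the intervals are widest where reads were few.

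C-type lectins went both ways. Of the 17 past the filter, 3 exceeded 2-fold upward and 1 downward, beside 10.4% and 13.1% of mRNA genes. In sign 8 were positive and 9 negative, beside 58.1% of mRNA genes below 0. The median was -0.04 (-0.21 after length adjustment). After that adjustment 3 were past 2-fold upward and 2 downward, beside 5.48% and 9.95%. Clec4d, Clec4e and Clec12a passed the filter through the adenoma pool alone and Clec2e through the control pool alone. This fixed the direction of each. The 3 called higher were receptors of macrophages and neutrophils that signal through Syk. Clec7a (Dectin-1), the receptor for fungal beta-glucan, was at 10.3 RPKM and 778 reads in the adenoma pool and 1.501 RPKM and 101 reads in the control pool, 6.86-fold higher (5.57 to 8.53). Clec4n (Dectin-2), which binds mannans, was at 32.7 RPKM in the adenoma pool and 7.08 in the control pool, 4.62-fold higher (4.04 to 5.31). Clec4d (MCL), a partner of Mincle, was at 6.54 RPKM in the adenoma pool and 0.798 in the control pool, 8.20-fold higher (5.68 to 12.4). All 3 stayed past 2-fold after length adjustment, at 2.05 for Clec7a, 1.38 for Clec4n and 1.46 for Clec4d.

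A pair of further activating receptors had ratios as large at lower levels. Clec4e (Mincle), which binds mycobacterial cord factor and a protein released by dead cells, was at 1.14 RPKM in the adenoma pool and 0.161 in the control pool, 7.09-fold higher (3.85 to 14.1), but 0.88 on the log2 scale with pseudocount. Clec5a (MDL-1), a receptor of myeloid cells that signals through the adaptor Dap12, was under the filter at 0.923 RPKM in the adenoma pool and 0.142 in the control pool, 6.51-fold higher (3.78 to 11.6). The summed level of these 5 receptors, a group picked with their values known, was 51.6 RPKM in the adenoma pool and 9.68 in the control pool.

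Clec4n, Clec4d and Clec4e are neighbours in the Dectin-2 cluster of chromosome 6 (GRCm38: Clec4n from 123229843 to 123247021, Clec4d from 123262111 to 123275265, Clec4e from 123281789 to 123289870), and Clec7a, which GENCODE M21 lists as a polymorphic pseudogene, lies in the Dectin-1 cluster of the same chromosome (129461591 to 129472779). In all, 23 of the 31 Clec genes are on chromosome 6. Position in a cluster did not fix the direction. Clec4a1, also in the Dectin-2 cluster (122921848 to 122934619), was at 1.57 RPKM in the adenoma pool and 3.50 in the control pool, 2.23-fold lower (1.70 to 2.95). Its neighbour Clec4a3 was at 1.90 RPKM in the adenoma pool and 2.13 in the control pool, with an interval of the ratio (0.648 to 1.23) that includes 1. Clec4a2 (DCIR), an inhibitory receptor of dendritic cells, was at 3.14 RPKM in the adenoma pool and 1.23 in the control pool, 2.55-fold higher (2.0 to 3.28), and 8.76% of its 50-base words occur in other genes. Clec12a, an inhibitory receptor of granulocytes and monocytes in the Dectin-1 cluster, was at 1.06 RPKM in the adenoma pool and 0.609 in the control pool, 1.74-fold higher (1.20 to 2.55). Under 1 RPKM in that cluster were Clec1b, the podoplanin receptor of platelets (0.361 in the adenoma pool and 0.0579 in the control pool), Clec9a, a dead-cell receptor of dendritic cells (0.448 and 0.206 in the same order), and Clec1a (0.397 and 0.311).

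The bases before the start of 5 receptor genes are shown as examples, chosen with their values known, of receptors with large differences in either direction. The RefSeq table they come from (build GRCm38.p6) matched 62 of the 76 genes. They are the 3 lectins Clec7a, Clec4d and Clec4e, higher in the adenoma pool, and Nlrp6 and Tlr1, lower in it. Each sequence is the 250 bases before the annotated start, 5′ to 3′ on the gene's strand, and capitals mark letters that match a motif searched on both strands.
Clec7a, GRCm38.p6 chr6:129472780-129473029, minus strand: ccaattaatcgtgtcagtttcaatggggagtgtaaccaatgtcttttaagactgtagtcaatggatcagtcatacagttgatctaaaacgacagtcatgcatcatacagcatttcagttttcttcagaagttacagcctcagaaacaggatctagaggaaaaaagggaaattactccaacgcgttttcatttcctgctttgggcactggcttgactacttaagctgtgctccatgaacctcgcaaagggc
Clec4d, GRCm38.p6 chr6:123261857-123262106, plus strand: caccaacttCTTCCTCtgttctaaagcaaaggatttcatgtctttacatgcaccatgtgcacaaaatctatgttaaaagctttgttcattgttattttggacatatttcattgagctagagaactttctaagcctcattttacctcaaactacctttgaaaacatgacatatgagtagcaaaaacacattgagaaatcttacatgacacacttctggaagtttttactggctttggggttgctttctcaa
Clec4e, GRCm38.p6 chr6:123289872-123290121, minus strand: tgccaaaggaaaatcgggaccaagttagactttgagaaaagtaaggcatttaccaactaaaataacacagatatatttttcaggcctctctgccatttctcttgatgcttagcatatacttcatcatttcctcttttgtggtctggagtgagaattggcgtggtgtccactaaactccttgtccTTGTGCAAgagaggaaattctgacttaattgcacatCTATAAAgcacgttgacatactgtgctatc
Nlrp6, GRCm38.p6 chr7:140920652-140920901, plus strand: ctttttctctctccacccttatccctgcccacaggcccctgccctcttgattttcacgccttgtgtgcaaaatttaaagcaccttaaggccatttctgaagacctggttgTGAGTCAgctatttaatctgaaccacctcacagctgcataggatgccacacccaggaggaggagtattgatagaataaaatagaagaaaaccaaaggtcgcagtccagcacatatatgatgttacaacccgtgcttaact
Tlr1, GRCm38.p6 chr5:64933559-64933808, minus strand: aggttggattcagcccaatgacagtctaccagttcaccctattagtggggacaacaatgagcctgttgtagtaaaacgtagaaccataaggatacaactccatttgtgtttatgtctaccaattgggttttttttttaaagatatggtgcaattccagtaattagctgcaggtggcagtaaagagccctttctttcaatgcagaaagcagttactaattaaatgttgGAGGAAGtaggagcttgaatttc

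The motifs were GAGGAAG for PU.1, a myeloid transcription factor, TGANTCA for AP-1, TTGCNNAA for C/EBP, TTTATNG for CDX and CAAAGTCCA for HNF4, with N for any base, together with the NF-kappaB site and the interferon response element. Clec4d held the PU.1 letters 241 bases before the start and Tlr1 held them 23 bases before it, one of them higher and the other lower in the adenoma pool. Clec4e held the C/EBP letters 66 bases and the CDX letters 30 bases before the start, and Nlrp6 held the AP-1 letters 140 bases before it. The PU.1 letters occurred before 16 of the 62 receptor genes (25.8%), against 10.4% of the 27025 genes with a promoter. AP-1 letters occurred before 16.1% of receptor genes and 6.87% of all, C/EBP letters before 21% and 9.55%, CDX letters before 16.1% and 10.2%, interferon response letters before 8.06% and 3.04%, NF-kappaB letters before 3.23% and 1.17%, and HNF4 letters before 0% and 0.381%. These shares were not tested, some receptor genes are related copies, and a match of letters shows no binding.

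Clec2d and Clec2h were the most abundant lectins in the adenoma pool, followed by Clec4n, and Clec3b and Clec2h were the most abundant in the control pool. Clec2d, a ligand of an inhibitory natural killer cell receptor, was at 77.3 RPKM in the adenoma pool and 40.3 in the control pool, 1.92-fold higher (1.80 to 2.05). Adjusted for length, its log2 fold change was 0.23. Clec2h, another ligand of this kind, differed by less than counting error, at 64.8 RPKM in the adenoma pool and 66.5 in the control pool (ratio 0.975, interval 0.935 to 1.02). The related Clec2e (0.934 RPKM in the adenoma pool and 1.24 in the control pool) and Clec2i (2.0 and 3.53 in the same order, 1.77-fold lower, 1.43 to 2.17) were less abundant. Clec3b (tetranectin), a plasminogen-binding protein of the matrix, was the 1 lectin called lower, at 22.5 RPKM and 739 reads in the adenoma pool and 70.5 RPKM and 2067 reads in the control pool, 3.14-fold lower (2.89 to 3.42). Its transcript is short, and after length adjustment its log2 value was -2.49, the most negative of the 40.

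The remaining lectins past the filter differed by less than 2-fold on the log2 scale with pseudocount. Clec11a, a secreted growth factor of bone marrow stroma, was at 3.19 RPKM in the adenoma pool and 1.51 in the control pool, 2.12-fold higher (1.73 to 2.63). Clec14a, an endothelial adhesion protein, was at 3.18 RPKM in the adenoma pool and 5.24 in the control pool, 1.65-fold lower (1.47 to 1.86). Its length-adjusted log2 value was -0.22, near the median of -0.17 over all mRNA genes. Clec16a, a regulator of mitophagy, was at 2.51 RPKM in the adenoma pool and 5.49 in the control pool, 2.19-fold lower (1.97 to 2.44), with a length-adjusted value of -0.38. Clec10a, a galactose-type lectin of macrophages, was at 1.83 RPKM in the adenoma pool and 2.10 in the control pool, with an interval of the ratio (0.687 to 1.11) that includes 1. Clec4g, known from liver endothelium, was at 0.195 RPKM on about 9.33 reads in the adenoma pool, against a listed value of 0 in the control pool, at least 2.77-fold higher against a floor of 3 reads in the control library. Clec3a, Clec4b2 and the Kupffer cell receptor Clec4f were listed at 0 in both pools.

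Neutrophil markers moved with the activating lectins, while those of other myeloid cells were mixed. Of 12 monocyte and macrophage markers, all above 0, 7 were higher and 5 lower in the adenoma pool, and their summed level was 1207 RPKM in the adenoma pool and 689 in the control pool. Their median was 0.46, but -0.12 after length adjustment. With that adjustment 7 of the 12 were negative and 0 were at least 2-fold higher, beside 61.4% and 5.48% of mRNA genes. The sum followed Lyz2 (621 RPKM in the adenoma pool and 328 in the control pool) and the C1q genes, while Csf1r (11.4 in the adenoma pool and 18.1 in the control pool), Emr1 (5.19 and 7.49) and Mertk (1.23 and 7.12) were lower. The 11 neutrophil markers summed to 311 RPKM in the adenoma pool and 2.87 in the control pool. S100a9 (175 RPKM in the adenoma pool and 0.694 in the control pool) and S100a8 (121 and 0.777) made up most of the adenoma sum. The 4 past the filter were all at least 2-fold higher, beside 10.4% of mRNA genes, but each passed through the adenoma pool alone, which fixed its direction. Elane, Mpo, Mmp8 and Ngp were at most 0.363 RPKM in the adenoma pool, against listed values of 0 in the control pool. Cxcr2 (0.0307 RPKM in the adenoma pool and 0.0389 in the control pool) and Camp (0.151 and 0.1695) had intervals of the ratio that include 1. Dendritic cell markers summed to 34.2 RPKM in the adenoma pool and 46.4 in the control pool, and 2 of the 4 past the filter were higher. Their sum followed Irf8 (21.4 RPKM in the adenoma pool and 37.3 in the control pool). Itgax was also lower (2.80 and 3.33 in the same order), whereas Batf3 (4.15 and 1.47) and Ccr7 (4.35 and 2.69) were higher. Platelet markers summed to 41.0 and 31.9 RPKM in the same order, with Gp9 listed at 0 in the adenoma pool. The part of these cell markers in the lectin values was not tested. Beside the endothelial Clec14a (-0.22 after length adjustment), 8 of 9 endothelial markers were lower, against 58.1% of mRNA genes. The sum of the 9 was 40.2 RPKM in the adenoma pool and 54.6 in the control pool. Prox1, which is also expressed outside endothelium, was the exception at 11.1 RPKM in the adenoma pool and 0.352 in the control pool. Sums of the other marker lists were, for the adenoma pool and then the control pool, 64.3 and 54.5 RPKM for B cells, 24.1 and 13.3 for T and NK cells, 338 and 247 for fibroblasts, and 1769 and 2127 for smooth muscle.

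The 4 partner genes were among the more abundant and differed by less than 2-fold. Pycard (ASC), the inflammasome adaptor, was the most abundant of all 76 genes, at 196 RPKM in the adenoma pool and 164 in the control pool, a ratio of 1.20. Cd14, the lipopolysaccharide co-receptor of Tlr4, was at 62.8 RPKM in the adenoma pool and 50.2 in the control pool (ratio 1.25, interval 1.19 to 1.32). Aim2, which binds cytosolic double-stranded DNA, was at 13.1 RPKM in the adenoma pool and 12.2 in the control pool (ratio 1.08, interval 0.991 to 1.17). Myd88 was at 11.0 RPKM in the adenoma pool and 16.8 in the control pool, 1.53-fold lower (1.39 to 1.69). With the libraries rescaled to equal sums of RPKM the values of Pycard, Cd14 and Aim2 turned negative, and that of Cd14 also did so after length adjustment, so no direction is given for these 3.

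The 3 lists of genes that act with the receptors held calls in both directions. Beside each list, 10.4% of all mRNA genes past the filter were called higher and 13.1% lower. After length adjustment these shares were 5.48% and 9.95%. Of 29 genes of Toll-like receptor signalling past the filter, 2 exceeded 2-fold upward and 2 downward (median -0.30). The lipopolysaccharide-binding protein Lbp was at 4.85 RPKM in the adenoma pool and 1.31 in the control pool, 3.69-fold higher (2.95 to 4.65), and Ly86, a partner of the Toll-like protein Cd180, was at 24.5 and 9.47, 2.59-fold higher (2.28 to 2.95). Tab2, an adaptor of the kinase Tak1, was at 8.80 RPKM in the adenoma pool and 21 in the control pool, 2.39-fold lower (2.24 to 2.56). After length adjustment 1 gene, Lbp, was past 2-fold upward and 0 downward, with Ly86 at 0.53 and Tab2 at -0.85. The most abundant gene, the chaperone Hsp90b1, was at 161 RPKM in the adenoma pool and 207 in the control pool.

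Among 16 genes around NOD-like receptors and inflammasomes, 2 exceeded 2-fold upward and 3 downward (median -0.12). After length adjustment 1 was past 2-fold upward and 2 downward. The cytokine Il1b, whose precursor caspase-1 cleaves, was at 21.4 RPKM in the adenoma pool and 3.90 in the control pool, 5.48-fold higher (4.63 to 6.54). Txnip, a thioredoxin inhibitor that binds Nlrp3 and headed the list in the control pool but stood below Il18 and Gsdmd in the adenoma pool, was at 53.8 RPKM in the adenoma pool and 213 in the control pool, 3.95-fold lower (3.82 to 4.07). Ciita, the transactivator of MHC class II genes and itself of the NOD-like family, was at 0.996 RPKM in the adenoma pool and 4.75 in the control pool, 4.77-fold lower (4.09 to 5.61). It passed the filter through the control pool alone, which fixed its direction. Among 12 genes downstream of C-type lectins, 1 exceeded 2-fold upward and 2 downward (median -0.39). Tyrobp (Dap12), the signalling partner of Clec5a, was at 114 RPKM in the adenoma pool and 23.5 in the control pool, 4.85-fold higher (4.35 to 5.41), and headed the list in the adenoma pool, whereas Prkcd did so in the control pool. Syk was at 8.29 RPKM in the adenoma pool and 19.8 in the control pool, 2.38-fold lower (2.24 to 2.54), and Prkcd, a kinase that acts after Syk, was at 31.5 and 105, 3.32-fold lower (3.18 to 3.46). After length adjustment Syk was at -0.73 on the log2 scale, and Tyrobp and Prkcd were still past 2-fold.

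Lectins of myeloid cells with other names were counted as a list of their own. Of 7 past the filter none was at least 2-fold higher and 1 was lower, beside 10.4% and 13.1% of mRNA genes. The 1 was Ly75 (DEC-205), at 0.915 RPKM in the adenoma pool and 4.15 in the control pool, 4.53-fold lower (3.90 to 5.31). It passed through the control pool alone, which fixed its direction. After length adjustment it was at -0.83 on the log2 scale, and 0 of the 7 were past 2-fold. The mannose receptor Mrc1 was at 3.43 RPKM in the adenoma pool and 6.48 in the control pool, and Mgl2 was at 4.71 and 2.07 in the same order, 2.27-fold higher (1.80 to 2.89) and 0.89 on the log2 scale with pseudocount. Cd302, the most abundant, was at 11.0 RPKM in the adenoma pool and 7.59 in the control pool. Of 7 other cytosolic sensors of nucleic acids, 1 exceeded 2-fold upward and 2 downward. Tmem173 (STING), the adaptor for cytosolic DNA, was at 33.8 RPKM in the adenoma pool and 6.59 in the control pool, 5.13-fold higher (4.64 to 5.69). The RNA sensor Ifih1 was at 3.19 RPKM in the adenoma pool and 10.2 in the control pool, 3.19-fold lower (2.89 to 3.51), and Mavs, the adaptor of RNA sensors, was at 5.89 and 16.1, 2.72-fold lower (2.47 to 3.0). Tmem173 and Mavs were still past 2-fold after length adjustment, whereas Ifih1 was at -0.98 on the log2 scale. Zbp1, the most abundant in the control pool and below Tmem173 in the adenoma pool, was at 30.7 RPKM in the adenoma pool and 21.9 in the control pool.

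**Figure D4:**
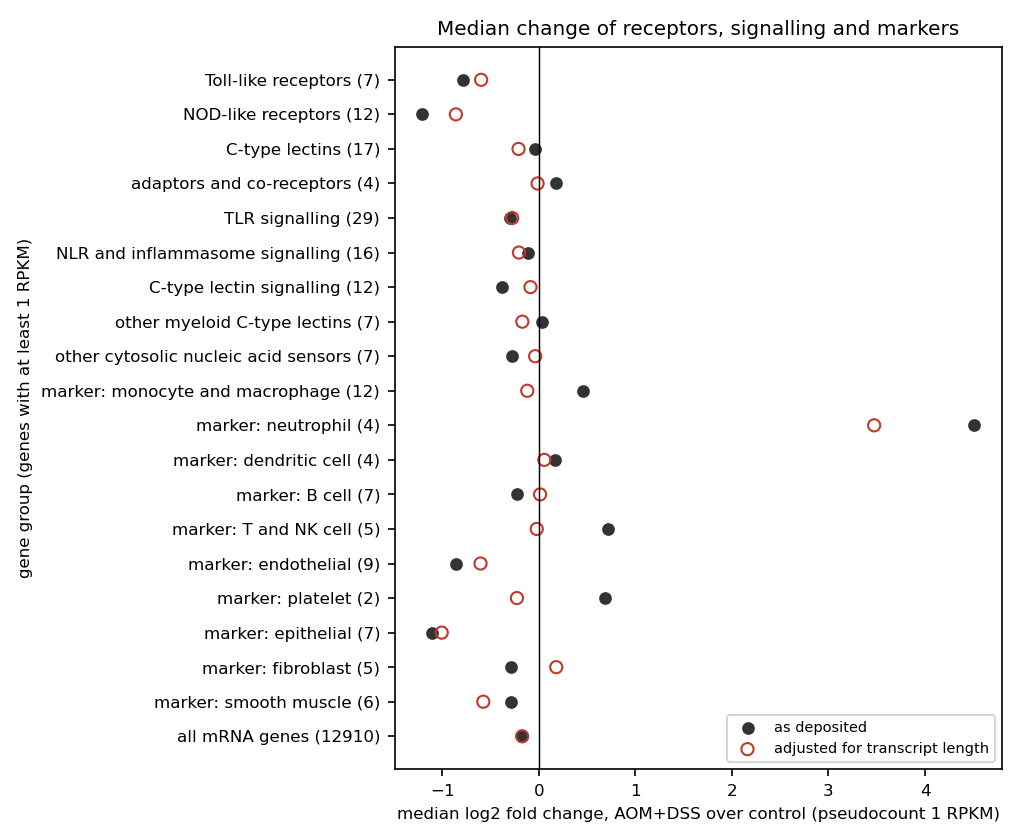
Median log2 fold change (adenoma over control) of each receptor family, signalling list, cell marker list and of all mRNA genes, as deposited (filled) and after adjustment for transcript length (open), with the number of genes past 1 RPKM in brackets. The NOD-like receptor median lies close to that of epithelial markers at -1.10, the lectin median lies near 0, and the neutrophil markers stand at 4.51 on 4 genes. These 4 passed the filter through the adenoma pool alone, which fixed their direction.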

How the data were processed

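Total RNA of 6 individuals per group was pooled before sequencing, per the labels, giving 1 library per group. The authors deposited RPKM values, scaled by gene length and library size, in 1 table. Both sample columns were used and 0 were left unmapped. The submitters' processing notes name GRCh37, a human build, although the symbols are mouse; the sources used here give no aligner, counter or annotation. The series text names a Proton sequencer and the library protocol an Illumina one.

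Totals behind the RPKM were recovered from genes for small RNAs, whose lengths are known, as 33174626 reads for the adenoma pool and 29548883 for the control pool. Reads per gene followed from GENCODE M21 transcript lengths: where a length gave multiples of 0.5 reads in both pools within 0.01 it was used (11 of 64 genes above 0), otherwise the longest basic transcript, so most reads and intervals are approximate. The 2 annotated Pycard transcripts differ widely in length, so its interval is not given and its length adjustment is uncertain. Intervals are exact (Clopper-Pearson) at 95%, from scipy 1.17.1.

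Log2 fold changes used a pseudocount of 1 RPKM and a filter of 1 RPKM in at least 1 pool; called means 2-fold. With 1 library per group no test was made. The length trend was fitted on mRNA genes as the median within each of 20 length bins. Shared sequence was counted as 50-base words of the longest basic transcript found in other GENCODE transcripts. The steps were tested on simulated data. Members and lists were chosen with earlier results of these data known. Every member past the filter is named, and of each signalling list the 3 largest differences and the most abundant gene. Alternatives were other pseudocounts, filters, thresholds and scalings and the length adjustment. Python 3.11.15 was used.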

Additional observations from a re-analysis of the deposited data

Results flagged for a closer look

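One row outside the rule, because its type is ncRNA, showed signal in the adenoma pool above what its control value allows. Clec2f-ps, by its symbol a pseudogene of the Clec2 group, stood at 0.257 RPKM (about 5.59 reads) in the adenoma pool against a listed value of 0 in the control pool (3 reads there correspond to 0.154 RPKM).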

How the results depend on the processing

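All 13 receptors past 2-fold kept their direction under the 7 other pseudocounts, scalings and length adjustment tried, and 6 of them stayed past 2-fold in each. Of the 40 named receptors 8 changed sign in at least 1 of these settings: Aim2, Cd14 and Pycard at equal sums, Cd14, Nlrc4, Nlrc5, Tlr4 and Tlr13 after length adjustment, and Clec2h with upper quartile scaling. Equal sums lowered the median of all mRNA genes by 0.32 on the log2 scale (shift -0.32). With it 4 Toll-like receptors and 3 lectins were at least 2-fold lower, in place of 2 and 1. With a pseudocount of 0.1, 7 receptors were higher (6 lectins and 1 Toll-like receptor), and 4 Toll-like receptors and 3 lectins were lower. With a pseudocount of 5, 4 receptors were lower, 2 of them NOD-like and 1 Toll-like. A filter at 5 RPKM left 1 Toll-like receptor lower. After length adjustment 4 NOD-like receptors and 2 lectins were lower. At 1.5-fold, 8 receptors were higher (7 lectins, 1 Toll-like) and 16 lower (4 Toll-like, 4 lectins). At 4-fold 1 receptor was lower, the NOD-like Nlrp6, with 0 Toll-like receptors and 0 lectins. The lectin median ranged from -0.38 at equal sums to 0.44 with the filter at 5 RPKM. The cause of these shifts was not tested. No paired analysis was possible because each group is 1 pool with no replicate number. Differences between animals and library preparations cannot be estimated, and receptors with few reads are limited by counting error.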

Other observations

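Some rows named like the Naip and Nlrp genes but not of type mRNA were outside the rule. Naip3 was at 0.225 RPKM in the adenoma pool and 1.03 in the control pool, and Naip3-ps1 at 0.140 and 0.463 in the same order. Nlrp1c-ps was listed at 0 in the adenoma pool and was at 0.0294 in the control pool.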
